A study of Mus musculus with 6 samples.

Results

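Genes that carry a cell through mitosis were examined in cardiomyocytes of the mouse embryonic heart with and without Yap, the transcriptional coactivator that the Hippo kinases restrain. The list held 52 genes of mitotic entry and exit, the kinetochore, the spindle, chromosome structure and cytokinesis. A listed gene was taken where a probe set of the array carried that gene symbol alone (Sgo1 for Sgol1), and the probe set with the highest mean was used where there were several. This gave 51 genes of 19938 on the array, and all 51 passed the filter on dim probe sets, so that they stood among 13632 genes tested. Ccnb1, which encodes cyclin B1, was the 1 listed gene without such a probe set, and it was not analysed here.

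The cells came from embryos at E12.5 and were 3 preparations labelled Yap HET and 3 labelled Yap KO, described as biological replicates. Both groups carried TNTCre, a Cre recombinase driven by the cardiac troponin T promoter, and the R26 mTmG reporter, which turns green where Cre has acted. They differed in the Yap flox allele, heterozygous in Yap HET and knocked out in Yap KO, so the controls already lacked 1 working copy in the cells where Cre acted and no group with both copies entered the comparison. Individual hearts were digested, green cells were sorted, and RNA was put on Affymetrix gene arrays; the sources used here do not say whether 1 array held 1 heart or several.

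Mitosis is driven by the kinase Cdk1 with its cyclin partners, which Plk1 and the Aurora kinases assist. Chromosomes are compacted by condensin and topoisomerase, attach to spindle microtubules through the kinetochore, and are held back by the spindle checkpoint until every attachment is made. The anaphase-promoting complex then destroys cyclin B and securin, separase frees the sister chromatids, and a contractile ring placed by the central spindle divides the cell. Cardiomyocytes of the embryonic heart divide, and Yap is known to favour their proliferation. Many genes of this programme share promoter elements, among them the cell cycle homology region (CHR), which DREAM and B-Myb complexes bind, and the CCAAT box of the factor NF-Y.

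These elements are shown for 3 genes that fell in Yap KO cells (Ect2, Racgap1 and Plk1) and for 2 whose levels lay closest to no change on the probe sets used (Top2a and Bub1). Other probe sets of Top2a had log2 changes between -1.02 and -0.73, none of them called. Each window is RefSeq sequence of the build GRCm38.p6, read 5′ to 3′ on the strand of the gene, from 250 bases before to 50 bases after an annotated start. The capitals mark matches to CHR (TTTGAA or TTCGAA) and to CCAAT, on either strand. The windows are Ect2 at chr3:27153805-27154104 (minus strand), Racgap1 at chr15:99651607-99651906 (minus), Plk1 at chr7:122159185-122159484 (plus), Top2a at chr11:99024140-99024439 (minus) and Bub1 at chr2:127831810-127832109 (minus).
Ect2: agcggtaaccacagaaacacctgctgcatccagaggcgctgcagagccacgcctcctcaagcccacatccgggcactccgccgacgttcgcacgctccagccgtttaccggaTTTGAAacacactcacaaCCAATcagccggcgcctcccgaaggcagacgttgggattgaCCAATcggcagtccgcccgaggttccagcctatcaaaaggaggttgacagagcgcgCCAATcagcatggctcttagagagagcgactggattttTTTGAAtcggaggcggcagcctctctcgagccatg
Racgap1: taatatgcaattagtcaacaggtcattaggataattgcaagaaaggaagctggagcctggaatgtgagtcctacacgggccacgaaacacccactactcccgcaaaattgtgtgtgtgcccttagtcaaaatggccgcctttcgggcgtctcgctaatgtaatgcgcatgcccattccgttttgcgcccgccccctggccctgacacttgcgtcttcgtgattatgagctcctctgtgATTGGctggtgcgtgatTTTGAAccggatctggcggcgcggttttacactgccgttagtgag
Plk1: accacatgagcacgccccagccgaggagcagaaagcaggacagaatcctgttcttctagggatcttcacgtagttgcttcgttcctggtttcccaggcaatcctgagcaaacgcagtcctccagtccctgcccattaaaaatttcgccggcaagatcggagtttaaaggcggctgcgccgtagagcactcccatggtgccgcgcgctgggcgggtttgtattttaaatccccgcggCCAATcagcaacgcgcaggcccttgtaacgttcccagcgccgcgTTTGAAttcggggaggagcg
Top2a: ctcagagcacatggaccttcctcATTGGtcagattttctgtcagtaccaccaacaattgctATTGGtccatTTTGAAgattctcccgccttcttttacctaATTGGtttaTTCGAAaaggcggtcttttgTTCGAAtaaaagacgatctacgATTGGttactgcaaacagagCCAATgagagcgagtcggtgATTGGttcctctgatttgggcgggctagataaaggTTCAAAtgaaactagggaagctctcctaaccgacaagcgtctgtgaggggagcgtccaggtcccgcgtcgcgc
Bub1: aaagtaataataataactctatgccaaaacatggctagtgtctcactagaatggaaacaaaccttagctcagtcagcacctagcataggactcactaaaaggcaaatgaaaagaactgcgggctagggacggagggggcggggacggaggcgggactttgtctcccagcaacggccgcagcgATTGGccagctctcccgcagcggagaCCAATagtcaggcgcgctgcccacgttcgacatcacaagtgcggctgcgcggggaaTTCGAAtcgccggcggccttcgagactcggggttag
Each of the 5 windows held at least 1 CHR match and at least 1 CCAAT match, the falling genes and the others alike. Top2a held 4 CHR and 6 CCAAT matches, more of both than any of the other windows printed. Racgap1 and Plk1 each held 1 CHR match, which began 6 and 31 bases after the start, and 1 CCAAT match, which began at -12 and -14.

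Windows were at hand for 43 of the listed genes, and the motifs were chosen after the values were seen. CHR matched in 34 of these 43 genes (79.1%), against 20.2% of 17491 protein-coding genes with windows of the same length. Of 49 CHR matches in their 48 windows, 35 began within 50 bases of the start. Windows of the same gene can overlap, so matches of Ect2, Prc1 and Bub3 were counted in more than 1 window. The share near the start was not computed for all genes. CCAAT matched in 79.1% of the listed genes against 42.3% of all genes, and both motifs together in 69.8% against 8.22%. The site of E2F factors, searched as TTTCCCGC, TTTCGCGC, TTTGCCGC or TTTGGCGC on either strand, matched in 6.98% of the listed genes, 36.8% of 38 DNA replication genes and 3.29% of all genes. The core of the TEAD factors, through which Yap binds DNA, searched as GGAATG, matched in 14.0% of the listed genes and 15.5% of all genes. Matches of different motifs overlapped in 1 case. A match is a description of the letters and not a binding site.

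**Figure D1:**
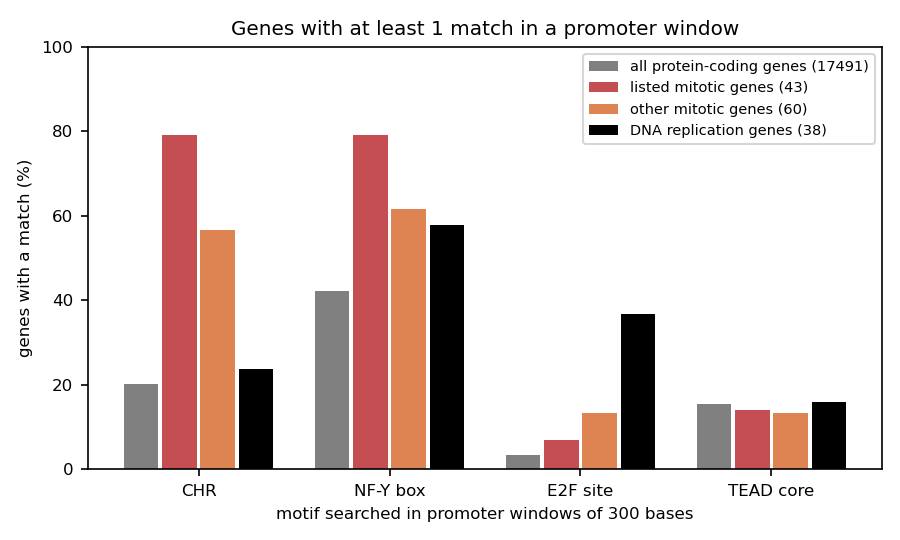
Share of genes, in percent, with at least 1 match in a promoter window of 300 bases, for 4 motifs (CHR, the CCAAT box of NF-Y, the E2F site and the TEAD core) and 4 sets of genes, whose sizes stand in the legend. CHR reached 79.1% in the listed mitotic genes and 23.7% in the DNA replication genes, and the E2F site 6.98% and 36.8%.

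Yap1 itself read 886, 927 and 871 in Yap HET cells and 103, 84.7 and 86.6 in Yap KO cells, a direction that follows the labels. Array medians lay between 128 and 140 (intensity over all probe sets), and arrays correlated at 0.992 to 0.996 within a group and 0.984 to 0.991 across groups. Intensities are the deposited linear values, and a change is the log2 difference of Yap KO from Yap HET, given with its standard error (SE). P-values come from a limma fit and were adjusted over 13632 genes by Benjamini-Hochberg, and a gene was called at an adjusted p under 0.05. By this rule 9.93% of all genes were called, 4.76% lower in Yap KO cells and 5.16% higher. The number of arrays limits the precision, and levels of different genes are not compared because each probe set has its own response. Cardiomyocyte markers (8 of 8 tested, among them Tnnt2 and Myh6) summed to 55439 to 56086 in Yap HET and 54289 to 55755 in Yap KO, with 0 of 8 called by limma and 4 of 8 below 0. At an unadjusted p under 0.05, 2 of 8 were lower and 0 higher, against 14.4% and 13.9% of all genes. The 2 were Nkx2-5, a cardiac transcription factor (-0.18, overlapping groups), and Tnni1, a troponin subunit (-0.13, separate groups). Their changes were of the same order as those of the mitotic genes. Actc1 (0.03) had separate groups in the other direction, higher in Yap KO.

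Of the 51 mitotic genes, 5 fell and 0 rose. The 5 were 9.804% of the list, beside the 4.76% of all genes called lower. They encode Ect2 and Racgap1, which act in cytokinesis, the kinases Aurkb and Plk1, and the kinetochore protein Spc24, and they were 14.0% to 17.7% lower in Yap KO cells. At an unadjusted p under 0.05, 20 of 51 were lower and 0 higher, against 14.4% and 13.9% of all genes. In 22 of 51 every Yap KO value lay under every Yap HET value, against 17.2% of all genes, and in 0 the reverse held, against 16.7%. The log2 change was below 0 in 45 of 51 (all genes 55.0%) and ran from -0.29 to 0.03, with a median of -0.12 beside -0.02 over all genes. The median SE was 0.06. When each array was centred on its median, which raised the median change of all genes to 0.04, 39 were below 0, the median was -0.06, and limma called 0 (at an unadjusted p under 0.05, 6 were lower and 0 higher). With that centring 2.49% of all genes were called lower. The calls, more than the sizes of the changes, depended on which arrays were kept. Omitting replicate 1 of Yap HET, or replicate 2 or 3 of Yap KO, left 0 calls, where 1.51%, 1.61% and 2.24% of all genes were called lower. Omitting replicate 2 or replicate 3 of Yap HET left 1 (Ect2 and Spc24, respectively), and omitting replicate 1 of Yap KO left 3 (Ect2, Racgap1 and Spc24). In these 3 fits 4.34%, 2.74% and 4.38% of all genes were called lower. Over these omissions the change of Ect2 stayed between -0.31 and -0.24, Spc24 between -0.31 and -0.23, Racgap1 between -0.28 and -0.21, Aurkb between -0.23 and -0.19 and Plk1 between -0.25 and -0.19.

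**Figure D2:**
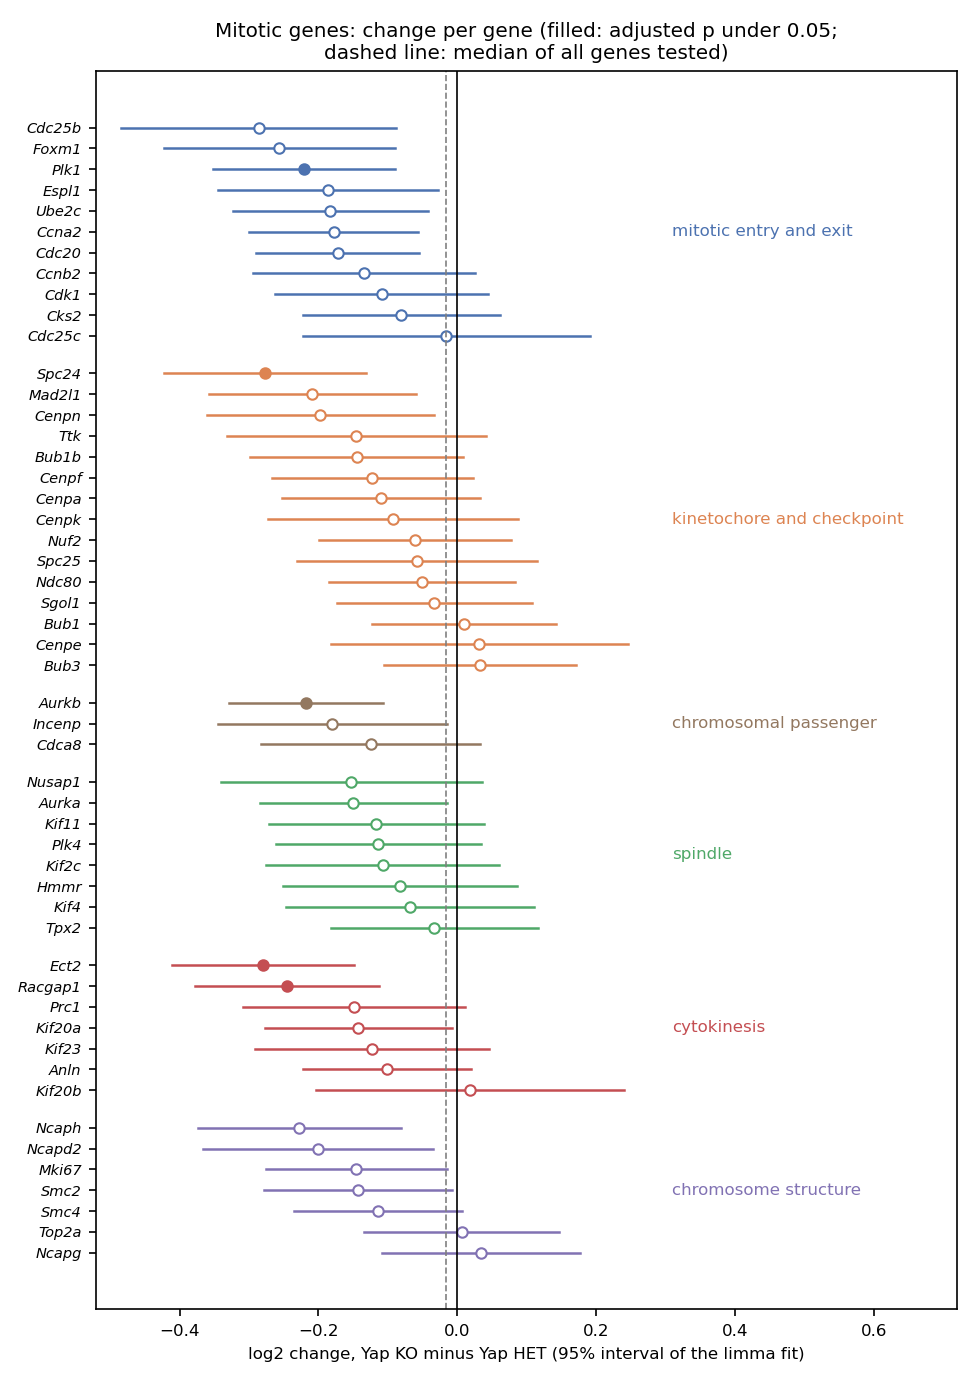
Log2 change, Yap KO minus Yap HET, of each of the 51 genes (points) with the 95% interval of the limma fit (lines), grouped and coloured by role. Filled points mark the 5 genes called, the solid line is no change, and the dashed line is the median of all genes, -0.02; 45 points lie left of the solid line.

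Some marker genes of other cell types changed with the same comparison. Which of the sorted cells carried their RNA, cardiomyocytes or others, was not tested. In bulk RNA a change in the number of cells that carry it cannot be told apart from a change in RNA per cell. The marker counts below stand beside 5.16% of all genes called higher and 4.76% called lower. Groups did not overlap in 16.7% of all genes (higher in Yap KO) and 17.2% (lower). Of 8 endothelial and endocardial markers 7 were tested and 2 rose (Kdr and Nfatc1), with a summed intensity of 1151 to 1242 in Yap HET and 1474 to 1575 in Yap KO, Tie1 being under the filter. Emcn (0.40) had separate groups and was not called. Cdh5 (0.36), Pecam1 and Tek (0.13 each) and Flt1 (-0.05) had overlapping groups and were not called. Of 7 mesenchymal and fibroblast markers 2 rose (Pdgfra and Postn), with a sum of 4648 to 4800.1 in Yap HET and 5435 to 7273 in Yap KO. Lum (0.45), Col3a1 (0.31), Col1a1 (0.26), Col1a2 (0.18) and Dcn (-0.004) had overlapping groups and were not called. Of 5 smooth muscle and pericyte markers 2 rose (Cspg4 and Pdgfrb), with a sum of 1515 to 1600.1 in Yap HET and 1869 to 2090.2 in Yap KO. Of the other 3, Kcnj8 was at -0.37 with separate groups and Myh11 at -0.09, neither called, and Rgs5 at 0.32. Of 6 epicardial markers 1 rose (Tcf21, at 0.93), but 4 of 6 were below 0 with a median of -0.25 and a sum of 3042 to 3729 in Yap HET and 2076 to 3310 in Yap KO. Upk3b (-0.68) and Tbx18 (-0.37) had separate groups, Upk1b (-0.45) and Aldh1a2 (-0.13) did not, and none of these 4 was called. None of the erythroid (6 listed, 3 tested) or macrophage (6 listed, 4 tested) markers was called by limma. Hbb-y, an embryonic globin gene, read 232, 27.1 and 19.8 in Yap HET and 1295, 449.9 and 86.3 in Yap KO; the erythroid sum was 212 to 557 and 309 to 2273, with Alas2 under the filter. The macrophage sum was 1016 to 1091 and 728 to 929, with Fcgr3 and C1qa under the filter. Of the 4 macrophage markers tested, 3 had separate groups, lower in Yap KO (75%, beside 17.2% of all genes). They were Cd68 (-0.72), Csf1r (-0.21) and Ptprc (-0.17), whereas Cx3cr1 (-0.07) had overlapping groups. The part of such other cell types in the changes of the mitotic genes was not tested.

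Cytokinesis genes made up 2 of the 5 that fell. Ect2 is the guanine nucleotide exchange factor that activates RhoA at the cell equator. It read 1577, 1493 and 1494 in Yap HET and 1301, 1184 and 1275 in Yap KO. The groups did not overlap, and the mean was 1521 ± 48.3 in Yap HET and 1253 ± 61.0 in Yap KO (SD, n = 3), with a change of -0.28 ± 0.06 (SE, limma adjusted p = 0.0236). Racgap1, the GTPase-activating subunit of centralspindlin that recruits Ect2, read 1389.6, 1480.1 and 1362 in Yap HET and 1242, 1142 and 1188 in Yap KO. Again every Yap KO array was below every Yap HET array, with a change of -0.24 ± 0.06 (limma adjusted p = 0.0374).

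The kinesin Kif23, partner of Racgap1 in centralspindlin, had a change of -0.12 ± 0.07 and was not called (limma adjusted p = 0.308). Its Yap HET values of 1079, 1121 and 1003 overlapped the Yap KO values of 1010.0, 896 and 1038. The genes of this complex thus differed in their calls, but the difference between them was not tested. The log2 ratio of Racgap1 to Kif23 changed by -0.12. With its mean over Yap HET set to 0, it lay between -0.04 and 0.04 in Yap HET and between -0.21 and -0.05 in Yap KO. Kif20a, a midzone kinesin, Anln, the ring scaffold anillin, and Prc1, which bundles central spindle microtubules, had changes of -0.14, -0.10 and -0.15, none of them called. Of these, Kif20a and Anln had groups that did not overlap. Kif20b, another kinesin of late mitosis, had a change of 0.02 with a 95% interval from -0.20 to 0.24. Among the 7 cytokinesis genes, groups did not overlap in 4 (57.14%, beside 17.2% of all genes). Of the 7, 2 fell (28.57%, beside 4.76% of all genes) and 0 rose, and the median was -0.14. Without replicate 2 of Yap KO that median was -0.091.

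Genes of mitotic entry and exit were below 0 in 11 of 11 (all genes 55.0%), with a median of -0.18, and 1 fell (9.091%, beside 4.76% of all genes). Plk1, the polo kinase that promotes entry and spindle assembly, read 1833, 1720.3 and 1685 in Yap HET and 1479.8, 1451 and 1565 in Yap KO. Its groups were separate, and its log2 change of -0.22 ± 0.06 lay just inside the threshold (limma adjusted p = 0.0492). Foxm1, the transcription factor that activates many genes of G2 and mitosis, read 862, 826 and 756 in Yap HET and 711, 630.1 and 704 in Yap KO. Its groups did not overlap either, but its change of -0.26 ± 0.07 lay just outside (limma adjusted p = 0.0632).

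The lowest estimate in the whole list was that of Cdc25b, a phosphatase that switches on Cdk1, with 371, 371 and 334 in Yap HET and 323, 262 and 299 in Yap KO. The spread of its arrays was wider, and its change of -0.29 ± 0.09 was not called (limma adjusted p = 0.0752). Ccna2 (cyclin A2), Cdc20 and Ube2c, the activator and the ubiquitin-conjugating enzyme of the anaphase-promoting complex, and Espl1 (separase) had changes of -0.18, -0.17, -0.18 and -0.19. Each had groups that did not overlap, and none was called (limma adjusted p from 0.0724 to 0.123).

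Cdk1, the kinase at the centre of mitotic entry, read 2224, 2084 and 1945 in Yap HET and 1952, 1833 and 2008 in Yap KO. Here the groups overlapped, and the change was -0.11 ± 0.07 with a 95% interval from -0.26 to 0.04 (limma adjusted p = 0.32). Ccnb2 (cyclin B2), Cks2, a small subunit that binds Cdk1, and Cdc25c, a second activating phosphatase, had changes of -0.13, -0.08 and -0.02, and their groups overlapped. The 3 probe sets of Cks2 had changes between -0.08 and -0.07.

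Among 15 genes of the kinetochore and the spindle checkpoint, 1 fell (6.667%, beside 4.76% of all genes) and 0 rose, and the median was -0.09. Groups did not overlap in 4 (26.67%, beside 17.2% of all genes). Spc24, a subunit of the Ndc80 complex, which binds microtubules, read 323, 349 and 312 in Yap HET and 284, 261 and 267 in Yap KO. The groups were separate, with a change of -0.28 ± 0.06 (limma adjusted p = 0.0339). The other subunits of that complex, Spc25, Nuf2 and Ndc80, had changes of -0.06, -0.06 and -0.05, with groups that overlapped and limma adjusted p-values from 0.542 to 0.654. The log2 level of Spc24 relative to the mean of the other 3, set to 0 over Yap HET, lay between -0.10 and 0.08 on the Yap HET arrays and between -0.24 and -0.20 on the Yap KO arrays. This contrast was chosen after the values were seen and was given no test.

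Mad2l1, the checkpoint protein that restrains Cdc20, read 1652, 1805 and 1699.6 in Yap HET and 1496, 1390.0 and 1577 in Yap KO. Its groups did not overlap, and its change of -0.21 ± 0.06 was not called (limma adjusted p = 0.0814). Cenpn, a reader of centromeric chromatin, and Cenpf, a large outer kinetochore protein, had changes of -0.20 and -0.12, also with separate groups and without a call. Bub1, a checkpoint kinase, read 1151, 1095 and 1143 in Yap HET and 1121, 1087 and 1205 in Yap KO, a change of 0.01 ± 0.06 with an interval from -0.12 to 0.14. Bub1b (BubR1) and Ttk (Mps1), which also serve the checkpoint, each had a change of -0.15 and overlapping groups. Cenpe, the kinetochore motor, and Bub3, the partner of Bub1, had changes of 0.03 each. Cenpa (the centromeric histone), Cenpk and Sgol1 (shugoshin, protector of centromeric cohesion) had changes of -0.11, -0.09 and -0.03, with groups that overlapped.

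The chromosomal passenger complex corrects faulty attachments and later moves to the midzone, and its genes were below 0 in 3 of 3 (all genes 55.0%). Aurkb, its kinase, read 1132, 1149 and 1146 in Yap HET and 1001, 951 and 996 in Yap KO. The Yap HET values lay close together (SD 8.95), and the change of -0.22 ± 0.05 was called (limma adjusted p = 0.0308). Incenp, the scaffold of the complex, read 461, 450.5 and 403 in Yap HET and 409, 363 and 389 in Yap KO. Its groups overlapped, and its change was -0.18 ± 0.07 (limma adjusted p = 0.148). Cdca8 (borealin) had a change of -0.12 and Birc5 (survivin), a further subunit that was not in the list, -0.09, both with overlapping groups. The log2 ratio of Aurkb to Aurka, the other Aurora kinase, changed by -0.07, with arrays of the groups that overlapped.

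**Figure D3:**
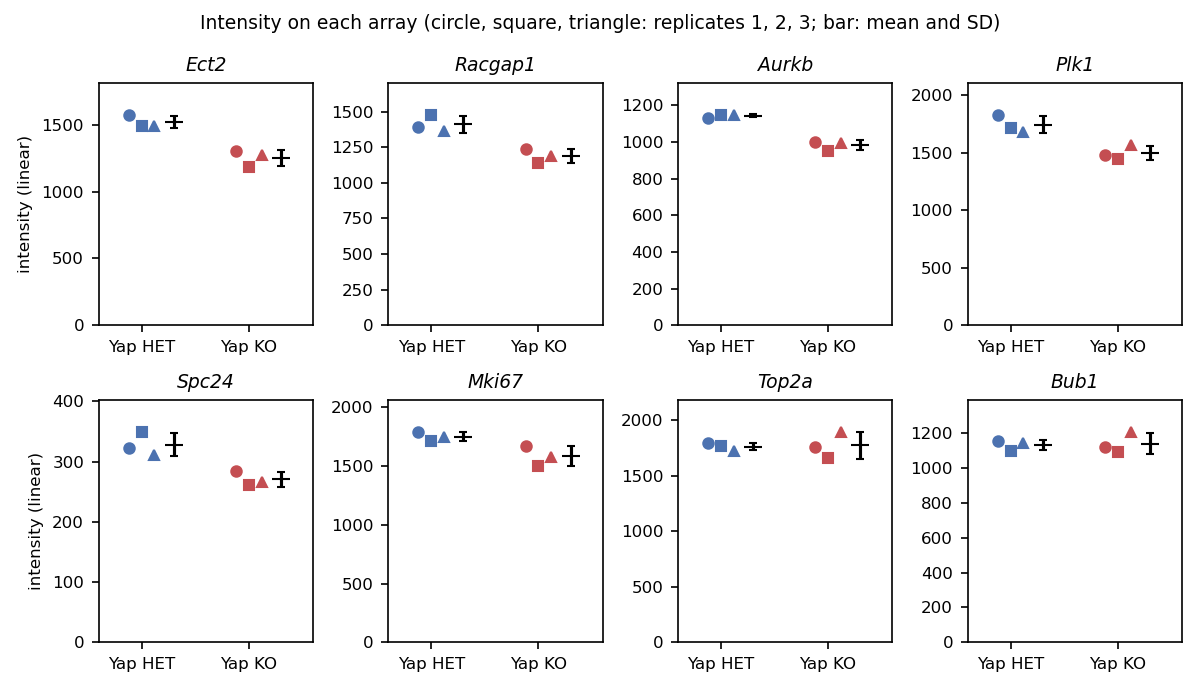
Linear intensity of 8 genes on each of the 6 arrays; circles, squares and triangles are replicates 1, 2 and 3, and the bar beside them is the mean with its SD over 3 arrays. In Ect2, Racgap1, Aurkb, Plk1 and Spc24, the genes called, and in Mki67 every Yap KO array lies below every Yap HET array, whereas the groups overlap in Top2a and Bub1.

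Among 8 spindle genes limma called 0. At an unadjusted p under 0.05, 1 was lower and 0 higher, against 14.4% and 13.9% of all genes. The log2 change was below 0 in 8 of 8 (all genes 55.0%), with a median of -0.11. That median was -0.068 without replicate 2 of Yap HET and -0.068 without replicate 2 of Yap KO. Aurka, the Aurora kinase of centrosomes and spindle poles, read 872, 901 and 816 in Yap HET and 811, 756 and 766 in Yap KO. It was the 1 spindle gene of 8 whose groups did not overlap, a share under the 17.2% of all genes. The change of Aurka was -0.15 ± 0.06 (limma adjusted p = 0.143). Nusap1, which binds and stabilises spindle microtubules, read 1318, 1240.4 and 1079 in Yap HET and 1069, 1046 and 1149 in Yap KO. The overlap lay between replicate 3 of Yap HET and replicate 3 of Yap KO, and the change was -0.15 ± 0.08 (limma adjusted p = 0.259). Kif11, the motor that pushes the poles apart, Plk4, which starts centriole duplication, and Kif2c, a depolymerising kinesin, had changes of -0.12, -0.11 and -0.11. Hmmr, Kif4, a kinesin of chromosome arms, and Tpx2, the activator of Aurka, had changes of -0.08, -0.07 and -0.03.

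Genes of chromosome structure had a median of -0.14 over 7, with 0 called by limma. At an unadjusted p under 0.05, 4 were lower and 0 higher, against 14.4% and 13.9% of all genes. Groups did not overlap in 5 (71.43%, against 17.2% of all genes). Ncaph, the kleisin subunit of condensin I, read 1404, 1364 and 1345 in Yap HET and 1181, 1085 and 1253 in Yap KO. Its change of -0.23 ± 0.06 was the closest to the threshold among the listed mitotic genes not called (limma adjusted p = 0.0624). Ncapd2, another subunit, read 1479.6, 1476 and 1370.4 in Yap HET and 1359, 1151 and 1259 in Yap KO, with a change of -0.20 ± 0.07 (limma adjusted p = 0.116). The core ATPase genes Smc2 and Smc4 had changes of -0.14 and -0.11, both with groups that did not overlap.

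Ncapg, the remaining subunit of condensin I, had 613, 591 and 561 in Yap HET and 604, 569 and 635 in Yap KO, a change of 0.03 ± 0.06. Its log2 level relative to the mean of the other 4 subunits was set to 0 over Yap HET. It then lay between -0.05 and 0.03 on the Yap HET arrays and between 0.16 and 0.23 on the Yap KO arrays. This contrast was likewise chosen after the values were seen and was not tested. Mki67, which encodes the proliferation marker Ki-67 that coats mitotic chromosomes, read 1788, 1707 and 1745 in Yap HET and 1666, 1498 and 1578 in Yap KO. The groups did not overlap, yet the change of -0.15 ± 0.06 was not called (limma adjusted p = 0.141).

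Top2a, the topoisomerase that untangles sister chromatids, was represented by probe sets that disagreed. The one used read 1793, 1762 and 1725 in Yap HET and 1759, 1659 and 1893 in Yap KO, a change of 0.01 ± 0.06 with an interval from -0.13 to 0.15. A second and much dimmer one, also annotated to Top2a alone, read 98.5, 70.1 and 61.8 in Yap HET and 54.0, 29.3 and 32.3 in Yap KO, which is -1.02 on the log2 scale. All of its Yap KO values lay below its Yap HET values, and its mean was under the filter. A further 2 probe sets, annotated to both Top2a and Hibadh, had changes of -0.79 and -0.73. None of the 4 was called when all 35556 probe sets were tested (limma adjusted p from 0.191 to 0.971), where 0.0787% of probe sets were.

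The role groups can be set side by side by their mean log2 level on each array, relative to the Yap HET mean. Kinetochore and checkpoint genes lay at -0.05, -0.17 and -0.07 on Yap KO replicates 1, 2 and 3, spindle genes at -0.05, -0.18 and -0.08, and cytokinesis genes at -0.08, -0.25 and -0.11. On the Yap HET arrays the same groups ran from -0.08 to 0.04, from -0.10 to 0.06 and from -0.07 to 0.05. Cytokinesis genes were separate between the groups of arrays by 0.02, while kinetochore and spindle genes overlapped. Entry and exit genes and passenger genes were separate by more, 0.05 each, and chromosome structure genes by 0.03. The mean change of the cytokinesis genes minus that of the kinetochore genes was -0.05, with arrays that did not overlap (-0.01 to 0.01 in Yap HET, -0.08 to -0.03 in Yap KO). Cytokinesis minus spindle was -0.04, with arrays that overlapped, and spindle minus kinetochore was -0.01. With 7 to 15 genes in a group and 3 arrays a side these are descriptions, and no difference between role groups was tested. Entry and exit genes lay at -0.12, -0.25 and -0.12, passenger genes at -0.13, -0.23 and -0.16, and chromosome structure genes at -0.08, -0.20 and -0.06. With each array centred on its median, the median change was -0.12 for entry and exit genes, -0.12 for passenger genes, -0.081 for cytokinesis and chromosome structure genes, -0.049 for spindle genes and -0.031 for kinetochore genes.

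**Figure D4:**
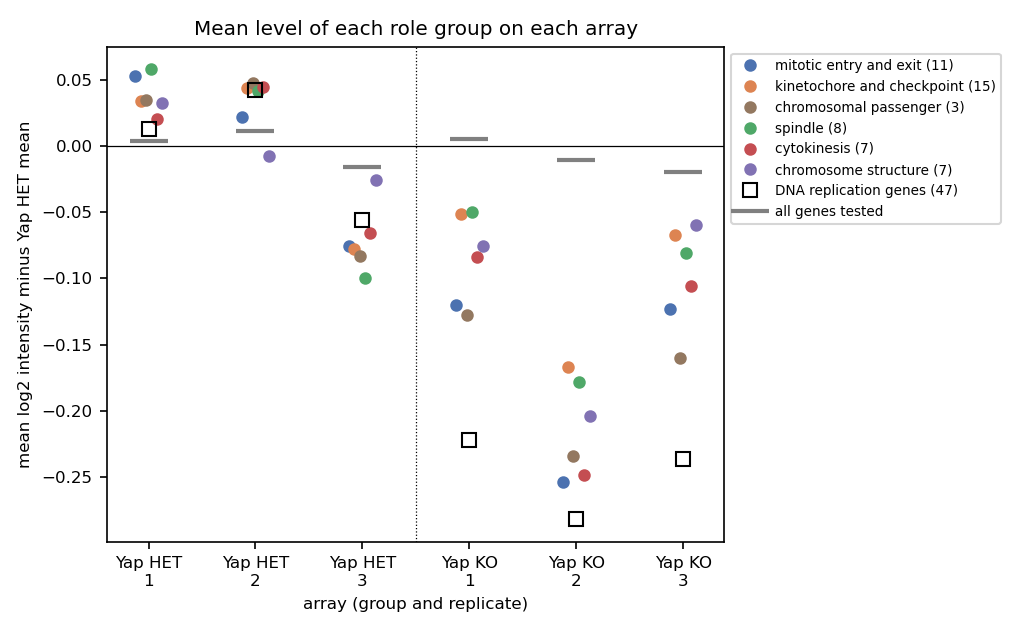
Mean log2 intensity of each role group on each of the 6 arrays, minus its mean over the 3 Yap HET arrays (vertical axis, log2 units); the number of genes is in the legend, open squares are 47 DNA replication genes, and grey bars are all genes tested. Every role group has its lowest mean on Yap KO replicate 2, between -0.25 and -0.17, and the mean over all genes stays between -0.02 and 0.01.

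The mitotic genes shared an order of the arrays inside each group. Yap KO replicate 2 was the lowest of the 3 Yap KO arrays in 48 of 51 genes (94.12%), against 32.11% of all genes tested. Other lists shared that order: it held in 76.12% of the other mitotic genes, 61.7% of the DNA replication genes and 6 of 6 epicardial markers, whose mean on this array was -0.49; their part in the order of the mitotic genes was not tested. Yap HET replicate 3 was the lowest of the Yap HET arrays in 42 of 51 (82.35%), against 51.25% of all genes. Over the 51 genes the arrays had mean levels of 0.04, 0.03 and -0.07 in Yap HET and -0.08, -0.21 and -0.09 in Yap KO, again relative to the Yap HET mean. The lowest Yap HET array and the highest Yap KO array were therefore 0.006 apart. Because the genes share these 6 arrays, their number does not add to the number of samples.

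Further genes of the same process, from a list of 70 of which 67 were tested, were read in the same way. Of these 6 fell and 0 rose (8.955% lower, beside 4.76% of all genes), and the median was -0.12. At an unadjusted p under 0.05, 29 were lower and 1 higher, against 14.4% and 13.9% of all genes. Cenpm, a centromere protein, had means of 1384 ± 69.9 in Yap HET and 945 ± 61.9 in Yap KO, a change of -0.55 ± 0.07 (limma adjusted p = 0.00419). Pkmyt1, the kinase that holds Cdk1 inactive, changed by -0.46 ± 0.07 and Pmf1, a subunit of the Mis12 kinetochore complex, by -0.41 ± 0.06. Haspin, which marks centromeric histone H3, Ccnf (cyclin F) and Bora, the cofactor through which Aurka activates Plk1, fell by 0.29, 0.26 and 0.25 on the log2 scale. Omitting replicate 1 of Yap HET, or replicate 2 or 3 of Yap KO, brought the 6 calls to 3.

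Among 14 genes of the complexes that control mitotic transcription, 1 fell (7.143%, beside 4.76% of all genes) and 0 rose. Mybl2, which encodes B-Myb, had means of 335 ± 19.1 in Yap HET and 250.1 ± 9.28 in Yap KO, a change of -0.42 ± 0.06 (limma adjusted p = 0.00732). The log2 change was below 0 in 11 of 14 (78.57%, beside 55.0% of all genes). It ran from -0.42 to 0.10, with a median of -0.11. In 6 of 14 every Yap KO value lay under every Yap HET value (42.86%, beside 17.2% of all genes). Among these, the pocket protein gene Rbl1, the E2F gene E2f4 and the NF-Y gene Nfyc had changes of -0.14, -0.20 and -0.16, none called. Lin9, which encodes a core subunit of the MuvB complex, had a change of -0.20 and overlapping groups.

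DNA replication precedes mitosis in the cell cycle. Of 47 DNA replication genes 25 fell (53.19%, beside 4.76% of all genes) and 0 rose. Of the 47, 80.85% had Yap KO values wholly under the Yap HET values, beside 43.14% of the mitotic genes and 17.2% of all genes. Their mean lay at -0.22, -0.28 and -0.24 on the Yap KO arrays, clear of the Yap HET arrays by 0.17. The mitotic mean stood above the replication mean by 0.14, 0.07 and 0.15 on Yap KO replicates 1, 2 and 3, and within 0.03 of it on each Yap HET array. This difference between the lists was given no test. Omitting replicate 1 of Yap HET brought the 25 calls to 8, and omitting replicate 2 or replicate 3 of Yap KO brought them to 11 and 12.

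**Figure D5:**
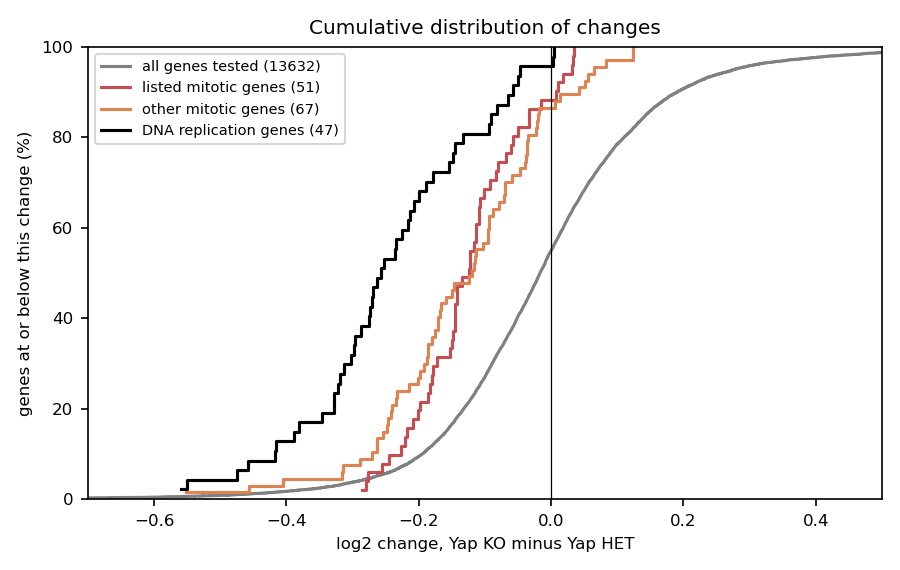
Cumulative share of genes, in percent, at or below each log2 change (horizontal axis, Yap KO minus Yap HET) for all genes tested, the 51 listed mitotic genes, 67 other mitotic genes and 47 DNA replication genes. The curves of the listed and the other mitotic genes run close together, with medians of -0.12 each, between that of all genes (-0.02) and that of the replication genes (-0.26).

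The changes were last set beside the promoter motifs. The 34 tested genes with a CHR match had a median change of -0.12 and the 8 without one -0.10. With both CHR and CCAAT the median was -0.14 over 30 genes, and without that pair -0.10 over 12. With at least 2 CCAAT matches it was -0.12 over 20 genes, and otherwise -0.13 over 22. The E2F site gave -0.11 over 3 genes with it and -0.12 over 39 without, and the TEAD core -0.17 over 6 with it, among them Racgap1, and -0.12 over 36 without. No such split was tested. Of the 5 genes called, Aurkb and Spc24 had no window here. The remaining 3, Ect2, Racgap1 and Plk1, carried both motifs, as did Bub1 and Top2a, whose probe sets disagreed.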

How the data were processed

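RNA of 6 preparations (3 Yap HET, 3 Yap KO) was measured on Affymetrix mouse gene arrays. The intensity values deposited by the authors are linear, and RMA is the method in the submitters' processing notes. RMA yields log2 values, so they may have been returned to the linear scale before deposit, a step that no source used here records. The lowest deposited value was 2e-05, and 587 of 35556 probe sets lay under 1 on at least 1 array. What gave such low values was not tested. No detection call was used, and signal over background is unknown.

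Names came from the platform annotation and were updated by Entrez identifier to the RefSeq table of GRCm38.p6, which matched 21698 of 21789 probe sets with a single symbol. Per gene, the probe set with the highest mean was kept; genes whose mean lay under an intensity of 85.7, the 40th percentile over probe sets, were dropped. Log2 intensities were compared in limma 3.58.1 (R 4.3.3; lmFit, then eBayes) with group as the only term, Benjamini-Hochberg adjustment and 0.05 as the threshold. The fit was tested on simulated data. The labels give no batch, array date or litter; where replicates share these, p-values measure only the spread between these samples.

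The genes, role groups, comparison lists and markers were chosen with earlier results of these data known. Any listed gene could be named. Values per array were due for genes called, the 2 smallest p-values of each role group, Mki67, Top2a, Cdk1 and Foxm1; in other lists, genes called and up to 6 with the smallest p could be named. Cdc25b, Kif23, Bub1, Ncapg and Birc5 were added after their values were seen, as were the motifs, which were searched in RefSeq promoter windows. Alternatives covered the filter, probe set choice, an added background, normalization, the prior, a replicate block, array weights and each array left out.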

Additional observations from a re-analysis of the deposited data

How the results depend on the processing

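The median change of the mitotic genes was below 0 under all 16 alternatives run, between -0.17 and -0.06, and 0 of them were called higher under any. The count of 5 called lower became 0 with no filter on dim probe sets, with the replicate block and with median centring, 8 with quantile normalization or cyclic loess, 11 with the stricter filter, 15 with a trended and robust prior, and 34 with array weights, which gave Yap HET replicate 1 a weight of 7.60. Leaving out 1 array gave 0 to 3. The share of all genes called lower, 4.76% in the main fit, moved as well. It was 1.19% with no filter, 2.22% with the replicate block, 2.49% with median centring, 5.61% with quantile normalization and 5.4% with cyclic loess. With the stricter filter it was 8.53%, with the trended and robust prior 7.75%, with array weights 18.9%, and without 1 array 1.51% to 4.38%. The other mitotic genes called lower (6) became 3 with no filter or median centring, 11 with cyclic loess, 13 with quantile normalization, 18 with the stricter filter or the trended and robust prior and 39 (1 higher) with array weights, and 3 to 8 without 1 array. The 25 replication genes became 12 with no filter, median centring or the replicate block and 38 with array weights, and 8 to 22 without 1 array. Over all genes 1353 calls became 508 with no filter, 698 with the replicate block, 2246 with the trended and robust prior and 4617 with array weights, and 433 to 1375 without 1 array. Median centring moved the share of lower calls from 47.97% to 24.32%, and every role group's median toward 0: kinetochore from -0.09 to -0.031, spindle from -0.11 to -0.049, cytokinesis and chromosome structure from -0.14 to -0.081, entry and exit and passenger genes from -0.18 to -0.12. The labels do not say whether same-numbered arrays are paired. Deviations from the group means had r of -0.08, -0.17 and 0.12 for same-numbered arrays and -0.23 to 0.28 for the others. Within each group of 3 these deviations sum to 0, so r cannot decide whether arrays were paired. Under the replicate block the smallest limma adjusted p among the mitotic genes was 0.0513. The change of Top2a turned below 0 with the mean of its probe sets (-0.51), with array weights (-0.032), when 1 array was left out (-0.043 to 0.052; below 0 on omitting replicate 3 of Yap KO or of Yap HET, the latter at -0.0078), and in its other probe sets (-1.02, -0.79 and -0.73; an alternative added after seeing the data). The causes were not tested. The 46 mitotic genes not called had 95% intervals reaching from -0.48 to 0.25, so the precision of 3 arrays a group does not show that they were unchanged.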
